A study of Homo sapiens with 6 samples.

Results

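The semaphorins, plexins and neuropilins were examined in HGC-27 cells depleted of ACAT2. Members were the protein_coding genes of the deposited table whose symbol is SEMA with a class number and a letter from A to G, PLXN with a letter from A to D and a number, or NRP1 or NRP2. This gave 31 genes of the 58735 in the table, namely 20 semaphorins, 9 plexins and 2 neuropilins. HGC-27 is a long-established line of gastric cancer cells from an undifferentiated tumour, labelled as wild type. Cells received the pSIH-H1-Puro vector for 24 h, with a hairpin RNA directed at ACAT2 (shACAT2) or as a negative control (shNC). They were then kept under puromycin for 7 days, so both groups carry a vector and were selected. The paper describes its negative controls as empty vectors, so a hairpin in the shNC cells is not established. Total RNA was sequenced as 3 libraries of each group, which GEO's design text calls biological replicates. The labels do not say which hairpin against ACAT2 the shACAT2 cells carried, whether cells were pooled or cloned after selection, or how the replicates were separated, so p-values measure the spread between these libraries.

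Semaphorins are secreted or membrane-bound guidance proteins that share a sema domain. Plexins are their receptors and act on small GTPases through a domain inside the cell, and neuropilins are co-receptors that bind the secreted class 3 semaphorins and also VEGF. First described in the guidance of growing axons, the family is also known for roles in cell migration, angiogenesis and epithelial tumours, where SEMA4D is the ligand of PLXNB1.

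The values were FPKM (fragments for each kilobase of a gene, relative to the size of the library), which compare levels between genes per length. Values of single libraries are given in the order of replicates 1, 2 and 3. Each library held 14086416 to 16067486 fragments on genes. ACAT2, the targeted gene, had 14.2, 11.7 and 12.7 FPKM in shNC and 6.19, 5.46 and 6.05 in shACAT2 cells (log2 fold change −1.01, limma adjusted p = 0.0059, and 0.0512 without shNC-3). One library, shACAT2-3, stood apart, with 7477 genes detected in it alone against 416 to 657 in the others, and shNC-2 and shNC-3 lay much closer to each other (chi-square per gene 1.71) than other replicates of a group did (10.8 to 39.3). Of 6 epithelial marker genes, 5 were under 1 FPKM in every library, among them EPCAM, KRT18 and KRT19, although the cells are labelled as gastric cancer cells. All 5 endothelial markers, and 5 of 6 leukocyte and 5 of 6 neural markers, were also under 1 FPKM throughout, as were 5 of 6 markers of the gastric mucosa. Fibroblast and mural cell markers were abundant, with a summed 105.8 to 111 FPKM in shNC and 193.9 to 220.3 in shACAT2 cells. In these bulk libraries, fewer cells of a kind and less RNA per cell cannot be told apart.

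All 31 genes had fragments in at least some libraries, and their levels ranged from under 0.1 to over 35 FPKM (plot of FPKM by gene and library). The receptor PLXNB2 was the most abundant member in every library, and SEMA4A and SEMA5B were the least abundant by group mean. In shNC cells PLXNB2 was followed by PLXNA1 (13.4 ± 1.03 FPKM), SEMA3D (12.0 ± 2.40), SEMA6B (11.5 ± 1.06) and PLXND1 (10.6 ± 0.907), where each gene from PLXNA1 onwards differed from the next by less than the larger of their SDs. In 22 members the mean of at least 1 group reached 1 FPKM, and these were the ones tested (13 semaphorins, 7 plexins and 2 neuropilins). SEMA4D passed this filter only through the shNC group and PLXNA4 only through the shACAT2 group. The 9 members not tested were SEMA4A, SEMA4F, SEMA4G, SEMA5B, SEMA6C, SEMA6D, SEMA7A, PLXNB3 and PLXNC1.

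**Figure D1:**
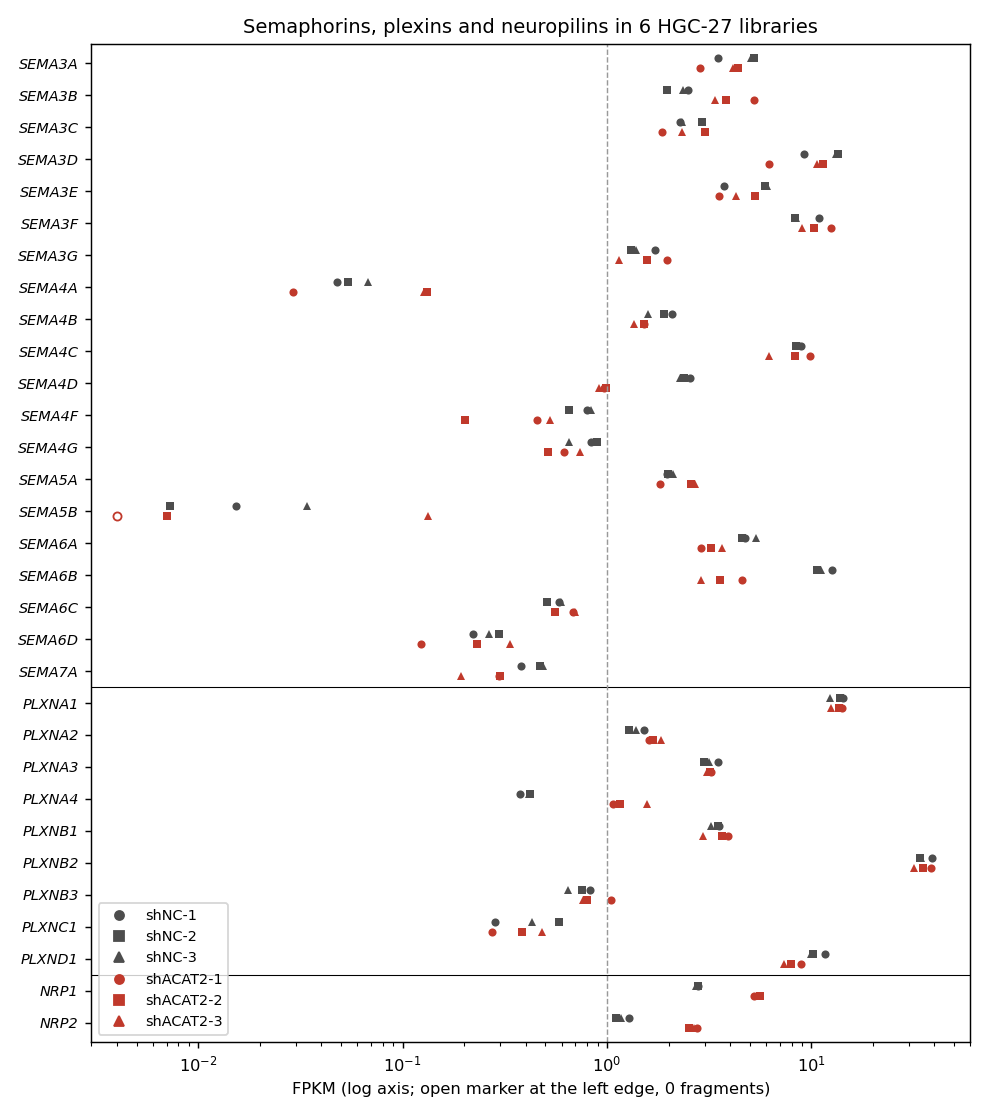
FPKM on a log axis of each of the 31 genes in the 3 shNC (grey) and 3 shACAT2 (red) libraries, with the marker shape giving the replicate number and the dashed line 1 FPKM. PLXNB2 lies at 31.8 to 38.9 FPKM in every library, the red markers of SEMA6B and SEMA4D lie to the left of the grey ones, and those of NRP1, NRP2 and PLXNA4 to the right.

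Both neuropilins were higher and the semaphorins SEMA6B and SEMA4D lower in shACAT2 than in shNC cells. These 4 had a limma adjusted p below 0.05 over all genes tested, the threshold at which a gene is called here. For SEMA4D, which passed the filter through its higher group and was known to be lower when it was singled out, the call is a description, and it supports nothing about the family. With no filter on level its adjusted p was 0.0421. Across the 13832 genes tested, 5.10% were called, 3.30% as higher and 1.81% as lower. None of the 7 plexins tested was called, while 2 of them, PLXNA4 and PLXND1, had an unadjusted p below 0.05, as did 23.5% of all genes tested. With the replicate number as a block, 7 members were called, against 12.5% of all genes, and with limma-voom on fragments for genes with at least 10 fragments in 3 libraries 8 of 29 members, against 7.74%. With both an absolute log2 fold change above 1 and an unadjusted p below 0.05, SEMA6B was the 1 member to pass, against 1.50% of all genes. The 3 shACAT2 values lay wholly above or below the 3 shNC values in 10 of the 22 members tested, 5 in each direction, against 30.7% of all genes tested. The median log2 fold change of the members tested was −0.02, beside 0.02 for all genes tested. The number of members called was 2 without shACAT2-2, shNC-1 or shNC-2, 1 without shNC-3 and 6 without shACAT2-3. Over all genes the number called was 706 in the full set. It was 129 without shACAT2-2, 135 without shNC-1, 101 without shNC-2, 63 without shNC-3 and 704 without shACAT2-3.

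**Figure D2:**
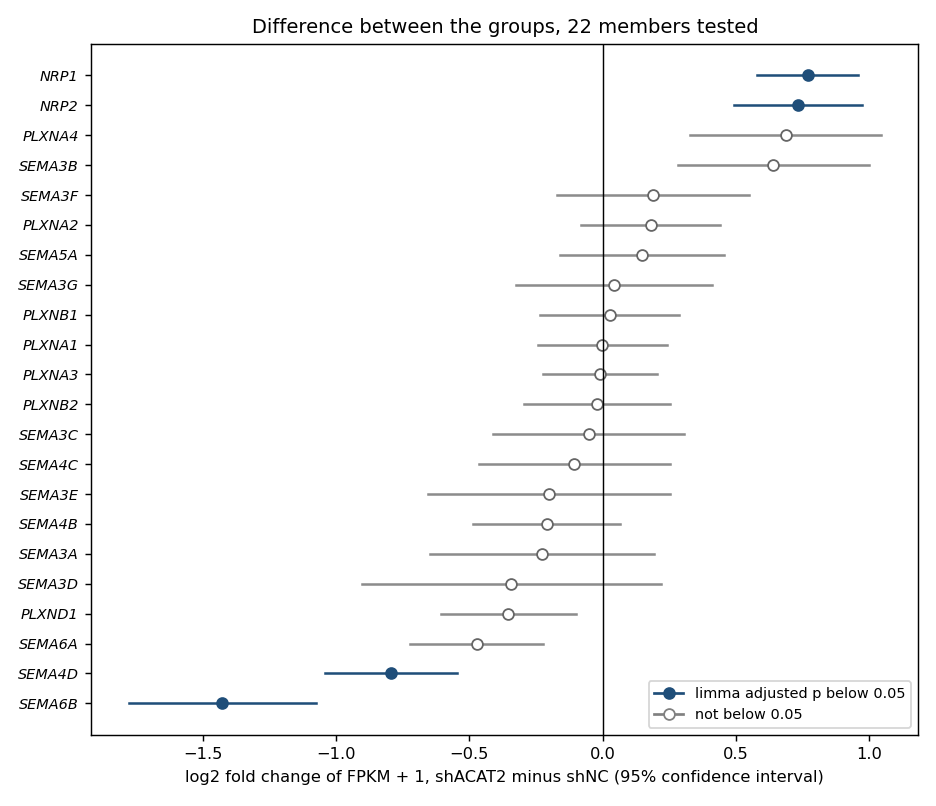
Log2 fold change of FPKM + 1 (shACAT2 minus shNC) with its 95% confidence interval from limma for the 22 members tested, filled where the adjusted p was below 0.05. SEMA6B at −1.43 and SEMA4D at −0.79 are the lowest, and NRP1 at 0.77 and NRP2 at 0.73 the highest.

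The class 6 semaphorins, transmembrane proteins that signal through class A plexins, held the largest decrease among the members tested. SEMA6B (ENSG00000167680, chromosome 19 from 4542593 to 4559808 on the minus strand of hg38) had 12.7, 10.6 and 11.2 FPKM in the shNC libraries and 4.60, 3.59 and 2.89 in the shACAT2 libraries, from 191 to 856 fragments. Every shACAT2 library lay far below every shNC library, and the mean fell to 32.1% of the shNC mean (11.5 ± 1.06 to 3.69 ± 0.861 FPKM, SD, n = 3 each). On the log2(FPKM + 1) scale it fell by 1.43 (standard error 0.15, limma adjusted p = 0.0060), and with any 1 library left out the adjusted p stayed at or below 0.0472. By p it was number 15 of the 6598 genes with a lower value in shACAT2 cells. Its relative SEMA6A had 4.74, 4.59 and 5.38 FPKM in shNC and 2.90, 3.24 and 3.64 in shACAT2 cells. These groups did not overlap either, yet the adjusted p was 0.0524 (limma log2 fold change −0.47, standard error 0.11), falling to 0.0290 with the replicate block and to 0.0488 without shACAT2-3. SEMA6A was called in 6 of 17 alternative fits, among them limma-voom with 10 fragments in 3 libraries (adjusted p = 0.0354), and not in the other 11. SEMA6A shares 2.45% of its exon bases with SEMA6A-AS1 on the opposite strand, to which 5 to 47 fragments were assigned. The ratio of SEMA6B to SEMA6A was 2.07 to 2.67 in the shNC libraries and 0.792 to 1.59 in the shACAT2 libraries. The remaining class 6 genes were under the filter, SEMA6C at 0.585, 0.510 and 0.599 FPKM in shNC and 0.680, 0.559 and 0.700 in shACAT2 cells and SEMA6D at 0.221, 0.296 and 0.264 FPKM in shNC and 0.123, 0.232 and 0.335 in shACAT2 cells, with overlapping groups in both.

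SEMA4D, a transmembrane ligand that proteases can release from the cell surface, was singled out among the semaphorins with its decrease in these data already known, so its value is a description of size. SEMA4D (ENSG00000187764, chromosome 9 from 89360787 to 89498130 on the minus strand of hg38) had 2.54, 2.38 and 2.28 FPKM in the shNC libraries and 0.972, 0.994 and 0.913 in the shACAT2 libraries, from 194 to 556 fragments. The groups lay well apart, and the libraries within each were close together, so that the mean was 2.40 ± 0.134 FPKM in shNC and 0.960 ± 0.0420 in shACAT2 cells (SD, n = 3 each), or 40.0% of the shNC level. Its limma log2 fold change was −0.79, with a standard error of 0.10 and an adjusted p of 0.0118, and was −1.24 with a pseudocount of 0.1 in place of 1, since at these levels a pseudocount of 1 understates a change. With 1 library left out the adjusted p rose to 0.0577 without shACAT2-2, 0.0622 without shNC-1 and 0.0839 without shNC-2 or without shNC-3, with the log2 fold change between −0.82 and −0.76. A two-sided exact permutation test of its FPKM values gave p = 0.1, the smallest that 3 against 3 libraries allow.

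The other class 4 semaphorins moved less or could not be tested. SEMA4C was the most abundant of them, with 8.88, 8.41 and 8.78 FPKM in shNC and 9.84, 8.30 and 6.23 in shACAT2 cells. For SEMA4C, shACAT2-1 lay above all shNC libraries, and shACAT2-2 and shACAT2-3 lay below them. Its log2 fold change was −0.11 (95% confidence interval −0.47 to 0.25, limma adjusted p = 0.723). SEMA4B had 2.08, 1.91 and 1.58 FPKM in shNC and 1.52, 1.52 and 1.35 in shACAT2 cells. Those groups did not overlap, but the difference was not called (log2 fold change −0.21, limma adjusted p = 0.329). SEMA4F, under the filter, had 0.798, 0.654 and 0.838 FPKM in shNC and 0.455, 0.203 and 0.524 in shACAT2 cells, from 21 to 90 fragments, with no overlap and with a limma-voom log2 fold change of −1.12 (adjusted p = 0.0697). For SEMA4G the values were 0.833, 0.892 and 0.651 FPKM in shNC and 0.614, 0.515 and 0.736 in shACAT2 cells, and the groups overlapped. It shares 22.3% of its exon bases with MRPL43 on the opposite strand, and whether strand was used in the counting is not given in the sources used here. SEMA4A had group means of 0.0567 and 0.0961 FPKM, from 3 to 15 fragments. Within the summed FPKM of the 6 class 4 genes, SEMA4D made up 16.7%, 16.7% and 16.0% in the shNC libraries and 7.24%, 8.53% and 9.24% in the shACAT2 libraries. PLXNB1, its receptor, was at 3.40 ± 0.163 FPKM in shNC and 3.50 ± 0.504 in shACAT2 cells, and the ratio of SEMA4D to PLXNB1 was 0.705 ± 0.0191 in shNC and 0.277 ± 0.0313 in shACAT2 cells (SD, n = 3 each).

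Promoter windows were read from RefSeq (GRCh38.p14) for 27 members. Those of SEMA4D, NRP2 and PLXNA4 are printed because they belong to a semaphorin that fell, a neuropilin that rose and the plexin with the largest ratio between the groups. Each holds the 250 bases before the start that RefSeq annotates, 5′ to 3′ on the strand of the gene. Capitals mark matches on either strand to a GC box (GGGCGG) or an E-box (CACGTG). The bases just after the start were found within a GENCODE release 29 transcript of the gene for NRP2 and PLXNA4, and not for SEMA4D. The windows lie at chr9:89495657-89495906 on the minus strand for SEMA4D, chr2:205682251-205682500 on the plus strand for NRP2 and chr7:132576471-132576720 on the minus strand for PLXNA4. Each window lies inside the deposited coordinates of its gene, which for PLXNA4 run from 132123332 to 132648688. Which start these cells use was not tested.
SEMA4D: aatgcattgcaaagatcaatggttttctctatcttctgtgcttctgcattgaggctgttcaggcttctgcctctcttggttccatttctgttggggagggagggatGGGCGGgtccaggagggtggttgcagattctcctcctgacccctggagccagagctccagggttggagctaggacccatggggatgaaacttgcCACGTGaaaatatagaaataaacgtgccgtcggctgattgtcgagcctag
NRP2: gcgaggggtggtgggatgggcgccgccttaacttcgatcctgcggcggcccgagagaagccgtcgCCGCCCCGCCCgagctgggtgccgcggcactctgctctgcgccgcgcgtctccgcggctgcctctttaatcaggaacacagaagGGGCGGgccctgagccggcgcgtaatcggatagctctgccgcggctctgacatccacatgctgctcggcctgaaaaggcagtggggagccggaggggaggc
PLXNA4: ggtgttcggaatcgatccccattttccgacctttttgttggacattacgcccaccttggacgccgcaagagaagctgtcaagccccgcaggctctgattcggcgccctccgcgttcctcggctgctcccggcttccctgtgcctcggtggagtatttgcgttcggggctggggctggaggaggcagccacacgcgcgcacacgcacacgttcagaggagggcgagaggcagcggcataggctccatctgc
The SEMA4D window had 1 GC box and 1 E-box at 52.4% G and C, the NRP2 window 3 GC boxes, 2 of them overlapping, at 70.0%, and the PLXNA4 window no match at 63.6%. Of the 35116 RefSeq windows of this length, 42.6% hold a GC box and 6.34% an E-box, while 30 (62.5%) and 3 (6.25%) of the 48 windows of the members do. These 48 windows come from 27 members, and some of them share bases. Their median G and C was 64.8%, beside 58.0% for all windows. The part of base composition in the share with a GC box was not tested. The core motif of TEAD factors, GGAATG, was found in 6 of the 48 windows (12.5%), beside 11.9% of all windows, and the AP-1 motif TGANTCA in 1 (2.08%), beside 6.57%. A match is a run of letters and not a binding site, and no match says only that these letters are not in this window. No window was matched for SEMA3A, SEMA6A, SEMA6B and NRP1.

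Class 3 semaphorins, the secreted ligands of the neuropilins, were the most abundant semaphorin class by summed FPKM, and none of the 7 was called. SEMA3B came nearest. It had 2.48, 1.97 and 2.35 FPKM in the shNC libraries and 5.24, 3.81 and 3.37 in the shACAT2 libraries. All shACAT2 libraries were higher, by 1.83-fold on the means, but they spread widely (4.14 ± 0.977 FPKM against 2.27 ± 0.267, SD, n = 3 each). In limma the log2 fold change was 0.64 with a standard error of 0.15 and an adjusted p of 0.0605, which became 0.0369 with the replicate block and 0.0468 without shACAT2-3. SEMA3B was called in 6 of 17 alternative fits, among them limma-voom with 10 fragments in 3 libraries (adjusted p = 0.0245), and not in the other 11. SEMA3F, which lies near it on chromosome 3, had 10.9, 8.28 and 8.40 FPKM in shNC and 12.5, 10.3 and 9.04 in shACAT2 cells, and SEMA3G 1.72, 1.30 and 1.39 FPKM in shNC and 1.97, 1.57 and 1.14 in shACAT2 cells. Both overlapped between the groups (log2 fold changes 0.19 and 0.04, limma adjusted p 0.506 and 0.894).

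The other class 3 genes lie on chromosome 7 and include SEMA3A, the classical repellent of axons that acts through NRP1. SEMA3D had 9.23, 13.5 and 13.2 FPKM in the shNC libraries and 6.22, 11.4 and 10.6 in the shACAT2 libraries. SEMA3E, a ligand that binds PLXND1 without a neuropilin, had 3.74, 5.91 and 6.06 FPKM in shNC and 3.55, 5.32 and 4.28 in shACAT2 cells. SEMA3A had 3.50, 5.25 and 5.06 FPKM in shNC and 2.86, 4.37 and 4.12 in shACAT2 cells. In all 3 of these genes each shACAT2 library was below the shNC library with the same number, while the groups overlapped, and the log2 fold changes were −0.34, −0.20 and −0.23 (limma adjusted p 0.436, 0.576 and 0.492). SEMA3C had 2.27, 2.92 and 2.33 FPKM in shNC and 1.86, 3.01 and 2.34 in shACAT2 cells, with a log2 fold change of −0.05 (limma adjusted p = 0.868). Per library, the 4 genes on chromosome 7 summed to 18.7, 27.6 and 26.7 FPKM in shNC and 14.5, 24.1 and 21.4 in shACAT2 cells, so that the first replicate was the lowest in each group.

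Beside the difference between the groups, the class 3 genes differed by replicate number. In replicate 1, SEMA3A, SEMA3C, SEMA3D and SEMA3E stood at 56.5% to 86.5% of the mean of replicates 2 and 3 of the same group, and SEMA3B, SEMA3F and SEMA3G at 115% to 146%. The same split ran through the 22 members tested by the base composition of their longest protein_coding transcript, from 34.9% G and C in SEMA3D to 67.7% in SEMA6B (plot of replicate 1 by base composition). Replicate 1 was the lower in both groups in 7 of them, at 34.9% to 53.7% G and C, and the higher in both in 13, at 50.4% to 67.7%. Over these 22 genes, which share the same libraries, the ratio of replicate 1 to the others had a Pearson correlation with G and C of 0.84 in shNC and 0.89 in shACAT2 cells (Spearman 0.81 and 0.88). Over 10773 and 10776 genes tested that have such a transcript, it was 0.63 and 0.72 (Spearman 0.69 and 0.75). The pattern was thus seen across the genes tested as well as in the members. Genes are not independent replicates, and these correlations are given as descriptions. The log2 fold change between the groups had a correlation of −0.09 with G and C over the 22 members (Spearman 0.02) and of −0.02 over 10776 genes (Spearman −0.04). What set replicate 1 apart was not tested.

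Class 5 and class 7 semaphorins were scarce. SEMA5A, a transmembrane protein with thrombospondin repeats, had 1.97, 1.99 and 2.10 FPKM in shNC and 1.82, 2.58 and 2.70 in shACAT2 cells. Its replicate 1 lay below and its replicates 2 and 3 above all shNC libraries, and no difference was called (log2 fold change 0.15, limma adjusted p = 0.544). SEMA5B had group means of 0.0189 and 0.0467 FPKM, and 17 of its fragments were in shACAT2-3 against 0 to 5 in each other library. SEMA7A, which is anchored by a lipid and binds PLXNC1, had 0.378, 0.471 and 0.488 FPKM in shNC and 0.295, 0.301 and 0.193 in shACAT2 cells. Those groups did not overlap, but they rested on 11 to 32 fragments and on a limma-voom adjusted p of 0.137.

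Both neuropilins, the co-receptors of class 3 semaphorins and VEGF, were upregulated about alike. NRP1 (ENSG00000099250, chromosome 10 from 33177492 to 33336262 on the minus strand of hg38) had 2.80, 2.78 and 2.73 FPKM in the shNC libraries and 5.25, 5.62 and 5.41 in the shACAT2 libraries, from 494 to 1076 fragments. NRP2 (ENSG00000118257, chromosome 2 from 205681990 to 205798133 on the plus strand of hg38) had 1.29, 1.11 and 1.18 FPKM in shNC and 2.77, 2.51 and 2.66 in shACAT2 cells, from 250 to 584 fragments. In both genes the lowest shACAT2 library was far above the highest shNC library, and the replicates of each group were tightly grouped. The means rose from 2.77 ± 0.0374 to 5.43 ± 0.183 FPKM for NRP1, by 1.96-fold, and from 1.19 ± 0.0903 to 2.65 ± 0.131 FPKM for NRP2, by 2.22-fold (SD, n = 3 each). Their log2 fold changes were 0.77 for NRP1 (standard error 0.08, limma adjusted p = 0.0060) and 0.73 for NRP2 (standard error 0.10, limma adjusted p = 0.0136). By p they were numbers 50 and 124 of the 7234 genes with a higher value in shACAT2 cells. Leaving out shNC-3 raised the adjusted p of NRP1 to 0.0560. For NRP2 it was 0.0544 without shNC-1, 0.0875 without shNC-2, 0.0905 without shNC-3 and 0.0631 without shACAT2-2, all with the same direction. NRP1 exceeded NRP2 in every library, by 2.17- to 2.50-fold in shNC and by 1.90- to 2.24-fold in shACAT2 cells.

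Marker lists of several cell types had higher sums in shACAT2 cells, as the neuropilins did. Of the 6 fibroblast and mural cell markers, 5 were tested and 4 called, all as higher, namely COL1A1, DCN, LUM and ACTA2. ACTA2, smooth muscle actin, rose from 3.77 ± 0.640 to 16.3 ± 2.96 FPKM, and COL1A1, a chain of type I collagen, from 61.0 ± 5.22 to 121 ± 16.1 FPKM (SD, n = 3 each; limma adjusted p 0.0035 and 0.0136). Leaving out any 1 shNC library or shACAT2-2 brought COL1A1 to adjusted p values of 0.0523 to 0.0983, and ACTA2 to at most 0.0328. With the same libraries left out, DCN came to 0.0670 to 0.140 and LUM to 0.130 to 0.155, with 0.0690 for LUM without shACAT2-3. None of the 6 markers was under 1 FPKM throughout, and the summed level of the list did not overlap between the groups. Of the 6 gastric mucosa markers, MUC1 was the 1 tested, and it was called as higher (limma adjusted p = 0.0245, and 0.0937 to 0.132 without shACAT2-2 or any of the shNC libraries). That list summed to 2.104 to 2.267 FPKM in shNC and 3.473 to 3.818 in shACAT2 cells, and the 6 epithelial markers, none of which was tested, to 0.9775 to 1.429 and 1.785 to 2.687 FPKM, both without overlap. The leukocyte markers also summed higher without overlap, at 1.164 to 1.477 FPKM in shNC and 1.541 to 1.854 in shACAT2 cells, with none called. The 1 leukocyte marker tested went the other way (log2 fold change −0.09), and the remaining 5 were under 1 FPKM in every library. The endothelial and neural sums overlapped between the groups. The part of these markers in the results for the neuropilins and semaphorins was not tested.

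**Figure D3:**
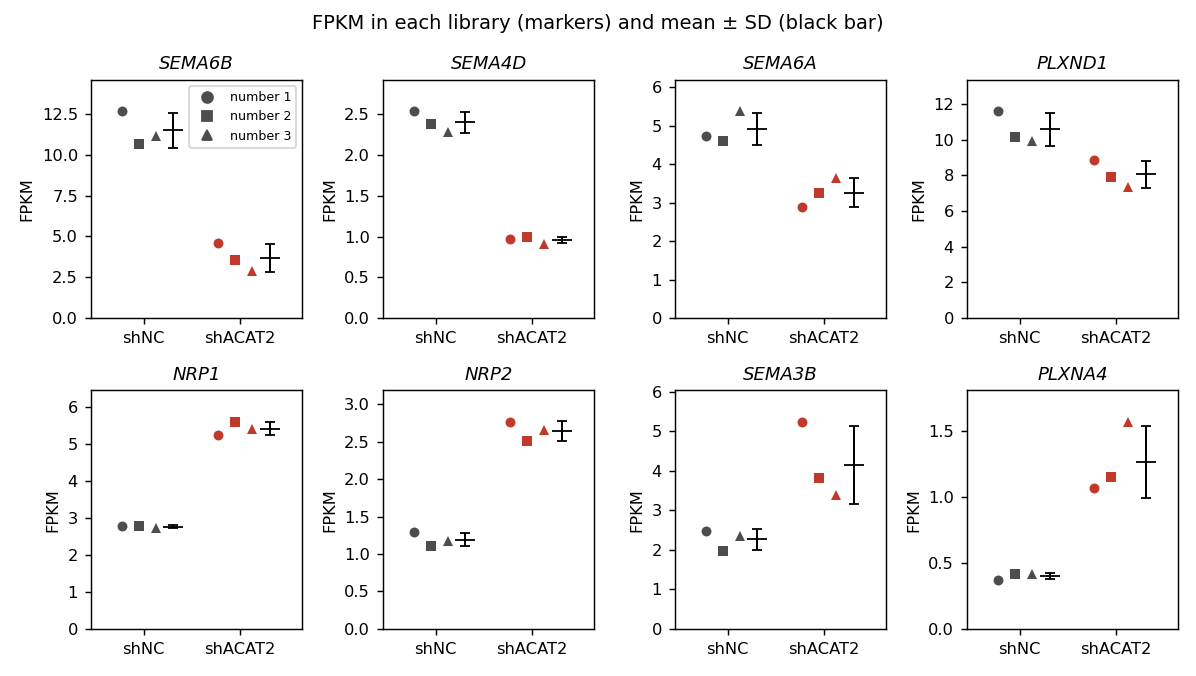
FPKM in each library (markers, with the shape giving the replicate number) and mean ± SD (black bar, n = 3) for the 8 members with an unadjusted limma p below 0.05. The top panels hold the 4 genes that were lower in shACAT2 cells and the bottom panels the 4 that were higher, and the groups overlap in none of them. Choosing genes by this p favours such a gap. Of all genes tested, 23.5% had such a p and 30.7% had groups that did not overlap.

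Among the plexins, PLXNA4, a receptor of class 6 semaphorins and, with neuropilins, of class 3, changed most in relative terms. Its FPKM was 0.375, 0.418 and 0.414 in the shNC libraries and 1.07, 1.16 and 1.58 in the shACAT2 libraries, from 94 to 387 fragments. All shACAT2 libraries were above all shNC libraries, and shACAT2-3 was the highest. The mean was 3.15-fold that of shNC cells (0.403 ± 0.0238 and 1.27 ± 0.270 FPKM, SD, n = 3 each). On the log2(FPKM + 1) scale the change was 0.69 (standard error 0.15) with a limma adjusted p of 0.0506, just over the threshold, and without shACAT2-3 it was 0.0899. PLXNA4 passed the filter only through its higher group, so these values are a description. With no filter on level its limma adjusted p was 0.129. On fragments, limma-voom gave a log2 fold change of 1.57 with an adjusted p of 0.0044. The other class A plexins differed little. PLXNA1 had 14.2, 13.8 and 12.3 FPKM in shNC and 14.1, 13.7 and 12.4 in shACAT2 cells, with a log2 fold change of −0.00075 and a 95% confidence interval from −0.24 to 0.24. PLXNA3 had 3.49, 2.98 and 3.14 FPKM in shNC and 3.25, 3.18 and 3.09 in shACAT2 cells (log2 fold change −0.01, interval −0.22 to 0.20). In PLXNA2 the values were 1.52, 1.28 and 1.38 FPKM in shNC and 1.61, 1.68 and 1.85 in shACAT2 cells, without overlap but not called (log2 fold change 0.18, limma adjusted p = 0.375).

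PLXND1, the receptor of SEMA3E in blood vessels, was lower in every shACAT2 library. Its FPKM was 11.6, 10.2 and 9.93 in shNC and 8.88, 7.93 and 7.36 in shACAT2 cells. The difference was of like size in each numbered pair, at −0.35, −0.32 and −0.39 on the log2(FPKM + 1) scale, and the replicates of both groups also differed among themselves. The limma adjusted p was 0.110 (log2 fold change −0.35, standard error 0.11), and 0.0347 with the replicate block. It was also below 0.05 with either limma-voom fit (0.0362 and 0.0337) and with scaling to fragments on genes (0.0408). In the other 13 of 17 alternative fits PLXND1 was not called.

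The class B plexins, receptors of class 4 semaphorins, were not called. PLXNB2 had 38.9, 33.8 and 34.3 FPKM in shNC and 38.5, 35.2 and 31.8 in shACAT2 cells, the highest level of any member (log2 fold change −0.02, 95% confidence interval −0.30 to 0.25). PLXNB1 had 3.52, 3.48 and 3.22 FPKM in shNC and 3.90, 3.67 and 2.94 in shACAT2 cells (log2 fold change 0.03, 95% confidence interval −0.23 to 0.29). In both the groups overlapped, and the intervals leave room for a small change in either direction. PLXNB3, under the filter, had 0.830, 0.757 and 0.646 FPKM in shNC and 1.04, 0.799 and 0.761 in shACAT2 cells, and it shares 20.4% of its exon bases with SRPK3 on the same strand. PLXNC1, the receptor of SEMA7A, had 0.284, 0.580 and 0.428 FPKM in shNC and 0.273, 0.383 and 0.479 in shACAT2 cells, from 41 to 93 fragments.

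Summed by class, the 3 shACAT2 libraries lay wholly below the 3 shNC libraries in the class 4, class 6 and class 7 semaphorins and in PLXND1, and wholly above them in the neuropilins (plot of summed FPKM by class). Classes 3 and 5 and the plexins A, B and C overlapped. The 4 class 6 semaphorins had 18.2, 16.0 and 17.4 FPKM in shNC and 8.30, 7.62 and 7.56 in shACAT2 cells, and SEMA6B made up 66.7% ± 2.74 of this in shNC and 46.9% ± 8.63 in shACAT2 cells (SD, n = 3 each). The 6 class 4 semaphorins summed to 14.2 to 15.2 FPKM in shNC and 9.89 to 13.4 in shACAT2 cells. These sums include SEMA4D, which was singled out with its decrease known, so their gap supports nothing about the class. The neuropilins together went from 3.96 ± 0.112 to 8.07 ± 0.0521 FPKM. The 9 plexins summed to 65.7 to 74.8 FPKM in shNC and 62.2 to 72.7 in shACAT2 cells, which overlapped. All 20 semaphorins summed to 69.6 to 73.1 FPKM in shNC and 55.4 to 61.9 in shACAT2 cells without overlap. Without SEMA6B, the sums of 56.9 to 61.9 and of 52.5 to 58.3 FPKM overlapped, so that the gap between the totals depended on that gene.

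**Figure D4:**
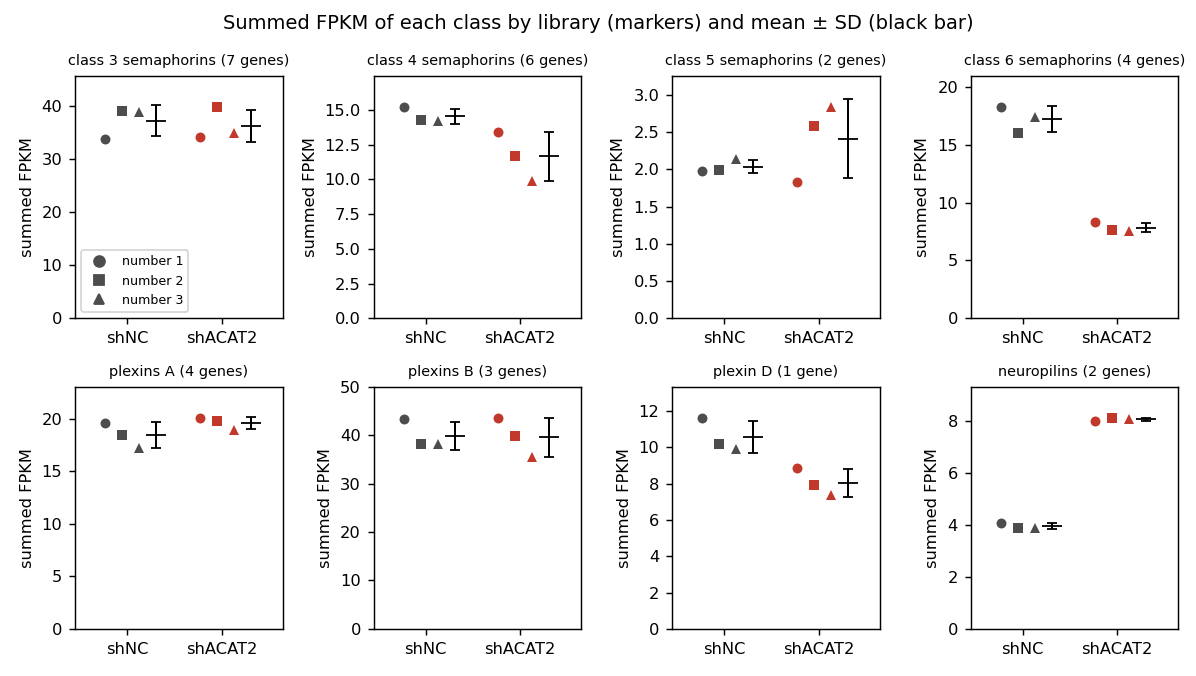
Summed FPKM of each class of ligands, receptors and co-receptors in each library (markers, with the shape giving the replicate number) with the mean ± SD (black bar, n = 3). Class 6 semaphorins go from a mean of 17.2 to 7.83 and neuropilins from 3.96 to 8.07. Class 4 semaphorins and plexin D are also lower without overlap, where class 4 includes SEMA4D, singled out with its decrease known. Class 3 semaphorins and the plexins A and B overlap between the groups.

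Semaphorin partners and effectors were read from lists of 63 genes, of which 44 were tested and 3 called, against 5.10% of all genes. With the replicate block 15 of the 44 were called, against 12.5% of all genes. Among 15 co-receptors and binding partners, L1CAM, an adhesion molecule that binds NRP1, had 3.51, 3.16 and 3.02 FPKM in shNC and 10.2, 8.58 and 7.59 in shACAT2 cells, and was called in the full set (log2 fold change 1.20, limma adjusted p = 0.0054) and with any 1 library left out. The receptor kinases that pair with plexin B were not called, MET at 5.67, 6.82 and 6.61 FPKM in shNC and 4.13, 5.66 and 5.62 in shACAT2 cells (log2 fold change −0.27, limma adjusted p = 0.276) and ERBB2 at 11.2 ± 0.754 and 12.2 ± 2.17 FPKM (SD, n = 3 each; log2 fold change 0.10, limma adjusted p = 0.719). KDR, the VEGF receptor of endothelial cells, had 0 fragments in every shNC library, a count that allows up to 3, and at most 7 in a shACAT2 library. Both VEGF ligands tested overlapped between the groups, VEGFA at 6.49 and 6.77 FPKM and VEGFB at 40.8 and 53.5 FPKM on the means.

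Downstream of plexins, RHOA, the GTPase through which class B plexins act, had 137, 115 and 113 FPKM in shNC and 235, 188 and 222 in shACAT2 cells without overlap (log2 fold change 0.82, limma adjusted p = 0.0245). It was the 1 gene called of 14 tested GTPases, GEFs and GAPs, while 10 of them had an unadjusted p below 0.05, against 23.5% of all genes, and 8 were called with the replicate block, against 12.5%. MICAL3, a member of the MICAL oxidases that act on actin, fell from 3.62 ± 0.141 to 2.15 ± 0.333 FPKM (SD, n = 3 each; log2 fold change −0.56, limma adjusted p = 0.0374). The adjusted p of RHOA was 0.0610 to 0.138 and that of MICAL3 0.0996 to 0.155 when shACAT2-2 or any of the shNC libraries was left out. None of the 10 kinases tested was called, with LIMK1 and CDK5 the most abundant by the mean over both groups. ROCK1, a kinase that RHOA activates, had a log2 fold change of −0.41 (limma adjusted p = 0.293, and 0.0462 with the replicate block). Nor was any of the 5 proteases tested called, with MMP14 at 25.7 and 37.4 FPKM and FURIN at 5.59 and 6.09 FPKM on the means.

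Other guidance families were read for comparison. Of 31 genes of the Slit and Robo, netrin and ephrin lists, 20 were tested and 2 called, against 5.10% of all genes, and 5 with the replicate block, against 12.5%. SLIT3, a secreted ligand of Robo receptors, rose from 3.71 ± 0.385 to 5.75 ± 0.348 FPKM and UNC5C, a netrin receptor, fell from 4.63 ± 0.233 to 2.50 ± 0.407 FPKM (SD, n = 3 each; log2 fold changes 0.52 and −0.69, limma adjusted p 0.0329 and 0.0224). Leaving out shACAT2-2 or any of the shNC libraries brought them to adjusted p values of 0.0702 to 0.163 and of 0.0565 to 0.122, and SLIT3 also to 0.0613 without shACAT2-3. No ephrin was called, and EFNA4 and EFNA2, the most abundant of the 8 by the mean over both groups, had means of 13.9 and 9.48 FPKM in shNC and 11.2 and 7.88 in shACAT2 cells. The median log2 fold change was −0.08, 0.01 and −0.15 in the Slit and Robo, netrin and ephrin lists and from −0.08 for the kinases to 0.27 for the GTPases in the lists of partners and effectors, beside 0.02 for all genes tested.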

How the data were processed

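RNA of 6 HGC-27 libraries, 3 shNC and 3 shACAT2, was analysed, with groups and replicate numbers taken from the sample titles. The authors deposited FPKM values with gene lengths and coordinates. The submitters' processing notes name HISAT2 2.0.5, featureCounts 1.5.0-p3, DESeq2 1.20.0 and hg38, with no settings, and strand use is not given in the sources used here. The coordinates and lengths of all 31 members equal those of GENCODE release 29. Fragments read back from FPKM and gene length were whole in 100% of values (tolerance 0.05), and no column of per-sample values was left unused.

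Members and gene lists were chosen with earlier results of these data known. Genes named from the lists were those called, or else the 2 most abundant by mean. Marker genes and any others were picked with their values known. limma 3.58.1 (R 4.3.3, with a trend) was applied to log2(FPKM + 1) where the mean of a group reached 1 FPKM, with Benjamini-Hochberg adjustment over all genes tested; fold changes on this scale understate those of low genes. The main fit was also run on simulated counts with a set change larger than that of NRP1, NRP2 or SEMA4D. That run therefore says nothing about how well changes of their size are recovered. Python 3.11.15, numpy 2.4.6, pandas 2.3.3 and scipy 1.17.1 were used elsewhere. Overlapping exons can take each other's fragments.

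Libraries with the same number deviated together from their group means (correlations 0.445, 0.126 and 0.171), all above 0.1, so the numbers may mark pairs, although shNC-2 with shACAT2-3 gave 0.198 and shNC-3 with shACAT2-2 gave 0.141. The reported fit has no block. The replicate block was an alternative, given where it changes a call, as were other scalings, pseudocount, filters, limma-voom, each library left out, and shNC-2 and shNC-3 averaged. The intervals cover the spread between libraries.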

Additional observations from a re-analysis of the deposited data

How the results depend on the processing

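Over 17 alternative fits the 4 called members kept their direction in all 68 comparisons, and SEMA6B also its call. The number of genes called moved from 706 to 1261 under limma-voom when 10 fragments were required in 3 libraries, 1165 under limma-voom otherwise, 209 with no filter, 1727 with the replicate block, 83 where shNC-2 and shNC-3 counted as 1 averaged library, and 63 to 862 on leaving out single libraries. The number of members called moved from 4 to 7 when every library needed 10 fragments, 8 with either limma-voom fit, 7 with the replicate block, 1 with the average, 8 at unadjusted p and 1 to 6 on leaving out single libraries. Among all genes, 1034 were called when every library needed 10 fragments, and 23.5% of those tested passed at unadjusted p. The share of all genes called was 12.5% with the replicate block and 7.74% under limma-voom with 10 fragments in 3 libraries. In the other fits that share is not given, so nothing about the members is read from their counts. Members past the fold rule numbered 5 and 4 with the limma-voom fits and 4 with a pseudocount of 0.1. The share of all genes past the rule in these fits is not given, so nothing about the members is read from the counts. With the average, SEMA4D was at −0.81 (limma adjusted p = 0.0757), NRP1 at an adjusted p of 0.0505 and NRP2 of 0.0834. Left out in turn, libraries gave SEMA4D −0.82 to −0.76 and ACAT2 −1.07 to −0.94. With the replicate block SEMA4D had an adjusted p of 0.0219, and the block ended no call among the members.

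Signs turned in 7 members that were not called. With upper-quartile scaling, which put the median of all genes at 0.056, the log2 fold change was 0.043 for PLXNA1, 0.025 for PLXNA3 and 0.024 for PLXNB2. That of PLXNB1 was −0.020 with either limma-voom fit and −0.016 with scaling to fragments on genes. On leaving out single libraries the ranges were −0.060 to 0.050 for PLXNA1, −0.049 to 0.039 for PLXNA3, −0.039 to 0.12 for PLXNB1, −0.087 to 0.048 for PLXNB2, −0.18 to 0.066 for SEMA3C, −0.07 to 0.17 for SEMA3G and −0.24 to 0.052 for SEMA4C. The cause was not tested. Members not tested rested on 0 to 111 fragments per library, so a change in them was hard to see at this depth.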
